A study of Saccharomyces cerevisiae with 6 samples.

Results

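The interior of long yeast genes gave 795 nucleosomes to the library examined by Topo-seq. Each is represented by a DNA fragment of core length, 130 to 159 bp, which the study's nucleosome list places at the +6 nucleosome of a gene or further from its transcription start. Fragments marked as terminal (at the end of a gene), rDNA or telomeric were left out, as were those within 30 kb of a chromosome end and those in chrXII:451000-469000. Of 887 fragments that met these conditions, 886 had at least 10 reads summed over the 2 sequencing runs in each gel section. They belonged to 795 nucleosomes, and 766 of these had a single fragment. The other 29 had several, of which the fragment with most reads in the unfractionated library was used. The whole library had 8018 distinct fragments that met the same read minimum, of which 4864 were of core length. The fragment lost to the read minimum, at +10 of UPC2 (YDR213W), was read 52 times in section A and only 9 times in section B. Of the 3 members nearest to the minimum, all with 10 reads in section B, those at +11 of PPN1 (YDR452W), +6 of FET5 (YFL041W) and +6 of MIY3 (YGL082W) had 20, 52 and 17 reads in section A.

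Chromatin of untreated S. cerevisiae strain FY251, grown in rich medium, was digested with micrococcal nuclease, and the mono-nucleosomal DNA was inserted in YCp1.3, a small circular yeast minichromosome, such that each circle carried a single nucleosome of the library. The circles were introduced into the same strain, the colonies were pooled, and their DNA was electrophoresed in a gel that resolves molecules by linking number (Lk), the number of times that both DNA strands wind around each other. The gel was cut at the mean Lk. Section A held the molecules with less negative linking number difference (∆Lk), section B those with more negative ∆Lk, and NucLib is the pool before electrophoresis. Each of these 3 DNAs was sequenced in 2 runs on separate flow-cell lanes, so that the runs are technical replicates of 1 pool and 1 gel. The spread between runs therefore holds no variation between cultures, transformations or gels. All nucleosomes were measured in the minichromosome, outside their native gene.

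In a nucleosome, DNA wraps in left-handed turns around an octamer of histones, which restrains negative supercoils. The ∆Lk that remains in a closed circle after relaxation by topoisomerases depends on how far the DNA is wrapped (writhe) and on how it is twisted along its path. Downstream of the promoter, yeast nucleosomes form regular arrays phased to the first nucleosome after the transcription start. The nucleosomes of long gene bodies lie far into such arrays, where the phasing is known to fade, and they are passed by RNA polymerase II at each round of transcription.

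The annotation bore out the position labels of most members. Of the 795 nucleosomes, 768 had their position counted in 646 annotated genes, 20 in non-coding transcripts (SUT, CUT and antisense units) and 7 in a gene whose name could not be read. The median position was +10, and the highest was +51, in TRA1. Among the 740 whose midpoint lay in the coding sequence of that gene, the median distance from the start codon was 793.5 bp at +6 (n = 108), 1424 bp at +10 (n = 55) and 2400 bp at +16 (n = 24), and a straight line gave 162 bp for each further position. Of these 740, 257 lay within 500 bp of the stop codon, so that not all members lie deep inside a gene. In 26 members the midpoint lay beyond the reading frame of the named gene. They include all 5 nucleosomes counted from RRG8 (YPR116W), at +18 to +36, whose midpoints lie in the neighbouring gene YPR117W. Of the fragments, 786 had a single copy in the genome and 9 had more. The fragments of 20 members overlap that of another member, and these share sequence.

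Sequences are shown for the members with the 3 highest and the 3 lowest ∆Lk among those read best (at least 100 reads in each section, a single genome copy and the same side of the library average of −1.26 in both runs, which 256 members met), and for the +7 nucleosome of DIN7, which the study also assayed by itself. They are written 5′ to 3′ in the direction of transcription of the gene, from the R64 reference, and capitals mark the longest run of A or T, the first where several have that length. The highest were MGA1 +8 (chrVII:988882-989019, plus strand), LAG2 +8 (chrXV:276075-276211, plus strand) and SSA1 +13 (chrI:139479-139611, minus strand). The lowest were NGG1 +8 (chrIV:815521-815678), UBP1 +7 (chrIV:243253-243404) and SCT1 +6 (chrII:204266-204408), all on the plus strand. DIN7 +7 is chrIV:994736-994883 on the minus strand. All 7 have their midpoint in coding sequence, and the last 24 bases of SSA1 +13 follow the stop codon.
MGA1 +8: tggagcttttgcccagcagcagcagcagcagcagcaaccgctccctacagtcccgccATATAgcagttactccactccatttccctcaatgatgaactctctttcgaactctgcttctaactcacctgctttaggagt
LAG2 +8: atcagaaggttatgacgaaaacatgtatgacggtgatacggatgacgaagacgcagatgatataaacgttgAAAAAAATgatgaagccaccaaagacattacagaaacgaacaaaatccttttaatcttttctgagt
SSA1 +13: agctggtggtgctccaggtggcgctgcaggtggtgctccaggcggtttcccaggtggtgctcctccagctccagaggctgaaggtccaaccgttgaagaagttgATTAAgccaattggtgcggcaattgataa
NGG1 +8: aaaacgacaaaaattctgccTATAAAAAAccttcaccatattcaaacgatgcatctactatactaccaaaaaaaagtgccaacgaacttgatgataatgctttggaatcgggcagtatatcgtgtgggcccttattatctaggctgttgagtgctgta
UBP1 +7: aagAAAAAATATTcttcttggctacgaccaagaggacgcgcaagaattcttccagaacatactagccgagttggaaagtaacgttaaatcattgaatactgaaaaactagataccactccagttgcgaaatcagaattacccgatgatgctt
SCT1 +6: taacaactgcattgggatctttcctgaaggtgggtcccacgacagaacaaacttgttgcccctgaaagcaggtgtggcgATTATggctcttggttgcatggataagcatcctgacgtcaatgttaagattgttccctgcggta
DIN7 +7: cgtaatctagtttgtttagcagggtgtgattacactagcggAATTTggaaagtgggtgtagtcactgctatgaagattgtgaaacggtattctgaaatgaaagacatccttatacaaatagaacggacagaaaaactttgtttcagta
The capital run has 9 bases in NGG1 +8, 10 in UBP1 +7 and 8 in LAG2 +8, and 5 in each of the other 4, so that its length did not separate the high from the low members shown.

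Most nucleosomes of long gene bodies were at least as abundant in section A as in section B. The reads of a member ran from 10 to 87401 in section A (median 114), from 10 to 27936 in section B (median 75) and from 10 to 63816 in NucLib (median 123). Relative to the totals of the lists, 652 of 795 had a larger share of section A, and the median of log2(A/B) was 0.51, a 1.43-fold excess. Library fragments made up 93.2% and 92.8% of these totals in the runs of section A, but 80.2% and 81% in section B. Dividing by the totals thus raises log2(A/B) of every library fragment, compared with dividing by library reads only. The median over all 8018 fragments was 0.17, and the edgeR calls use the same totals. With edgeR's quasi-likelihood test, 378 members were enriched in section A and 24 in section B after Benjamini-Hochberg adjustment over all 8018 fragments, and 393 did not pass the threshold of 0.05. Over all fragments tested, 27.8% were enriched in section A and 20.5% in section B. Over the fragments of core length these shares were 41.3% and 6.25%. The members, at 47.5% and 3.02%, thus stand near the core-length fragments in general, and the excess of section A was shared by core-length fragments of other origin. It was 51.6% and 6.26% among the 479 core-length nucleosomes at +3 to +5 chosen by the same filters. The difference between these shares was not tested, since nucleosomes of 1 gel are not replicates. DESeq2 called fewer, 133 for section A and 12 for section B, or 218 and 11 with the list totals as size factors, and TMM scaling, which lowered the median log2 value of all fragments by 0.19, called 277 and 41.

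**Figure D1:**
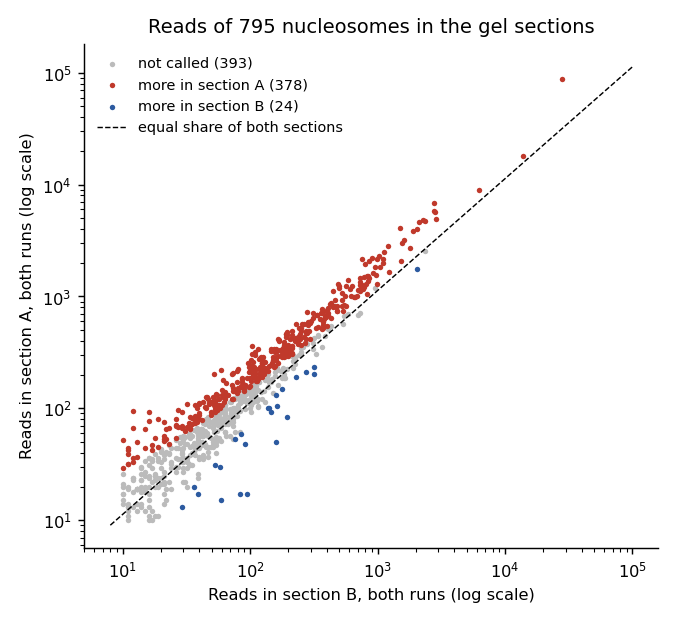
Reads of each of the 795 nucleosomes in section A (vertical, log scale) against section B (horizontal, log scale), summed over 2 runs. Red points (378) were enriched in section A, blue points (24) in section B and grey points (393) in neither by edgeR. Most points lie above the dashed line of equal shares of the list totals of both sections.

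The ∆Lk of each fragment was calculated in the steps of the study. The share of section A in the relative abundances was converted into a Z-score, multiplied by 0.85 (the SD of Lk distributions), reduced by the mean of all library fragments of the same length, and moved by 0.007 per bp of difference from 144 bp, and the library average of −1.26 was added. The 795 nucleosomes had a median ∆Lk of −1.26 and an SD of 0.21, beside a median of −1.26 and an SD of 0.326 over all library fragments. The central 80% of members spanned −1.52 to −1.03, and 387 (48.7%) were above the library average, beside 49.7% of all fragments. The subtraction alone would set the mean of each length at the library average, and the length term then moves it by 0.007 per bp of difference from 144 bp. A median near −1.26 is thus in part fixed by the calculation.

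The spread among members exceeded the counting error of most of them. The median counting SD of ∆Lk was 0.079, which rose to 0.132 for the 285 members with fewer than 50 reads in a section and was 0.058 for the other 510. The SD over members was 0.269 in the first group and 0.167 in the second, so that part of the spread of scarce members is counting error. Both runs gave a value (10 or more reads in each section of the run) for 658 members, with Spearman's rho of 0.67 and Pearson's r of 0.67 between runs. These are descriptions, and the points share 1 gel. The median absolute difference between runs was 0.086 and the largest was 0.75. Of these 658, 233 were above −1.26 in both runs, 250 were below it in both, and the rest changed side.

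**Figure D2:**
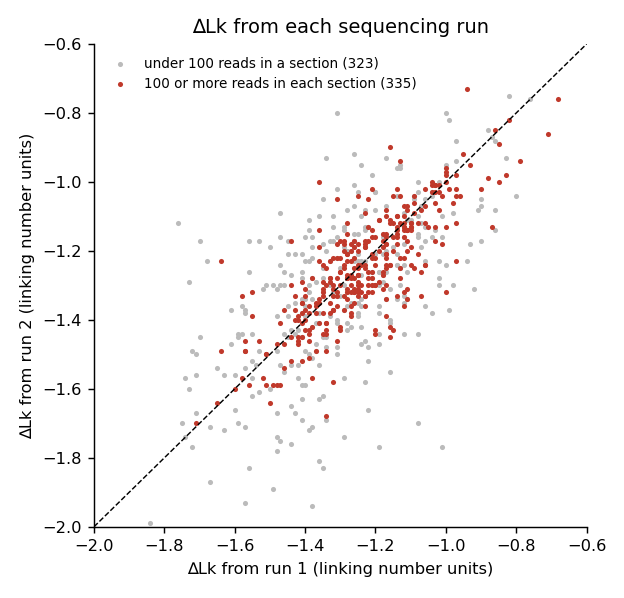
∆Lk of 658 nucleosomes calculated from run 1 (horizontal) and from run 2 (vertical), in linking number units, with the line of equal values dashed. The 335 members with 100 or more reads in each section (red) lie closer to the line than the scarce ones (grey), and the largest difference between runs was 0.75.

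The median ∆Lk showed no steady trend with the position of the nucleosome in the gene. It was −1.27 at +6 to +10 (n = 444, SD 0.211), −1.25 at +11 to +15 (n = 186, SD 0.2), −1.27 at +16 to +20 (n = 91, SD 0.22) and −1.26 at +21 and beyond (n = 74, SD 0.215). The difference of medians between +16 and beyond and +6 to +10 was 0.008, and it was 0.024 without run 1 and 0.022 without run 2. Spearman's rho between ∆Lk and gene position was 0.02 over 795 members. Enrichment in section A was called in 46.8%, 51.6%, 44.0% and 45.9% of the members in these 4 ranges. These shares stand near the 41.3% of core-length fragments, beside 27.8% of all fragments. Enrichment in section B was called in 18, 3, 3 and 0 members, beside 6.25% of core-length fragments and 20.5% of all fragments. Compared with the core-length nucleosomes at +3 to +5, whose median was −1.25 (SD 0.243), the members were lower by 0.011 in the median, a difference that ranged from −0.026 to −0.002 across the ways of calculating ∆Lk. The +2 nucleosomes of core length, chosen by the same filters, had a median of −1.24 (n = 264). The 167 terminal nucleosomes of core length had the lowest median of these classes, −1.31, with 36.5% above the library average. None of these class differences was tested.

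**Figure D3:**
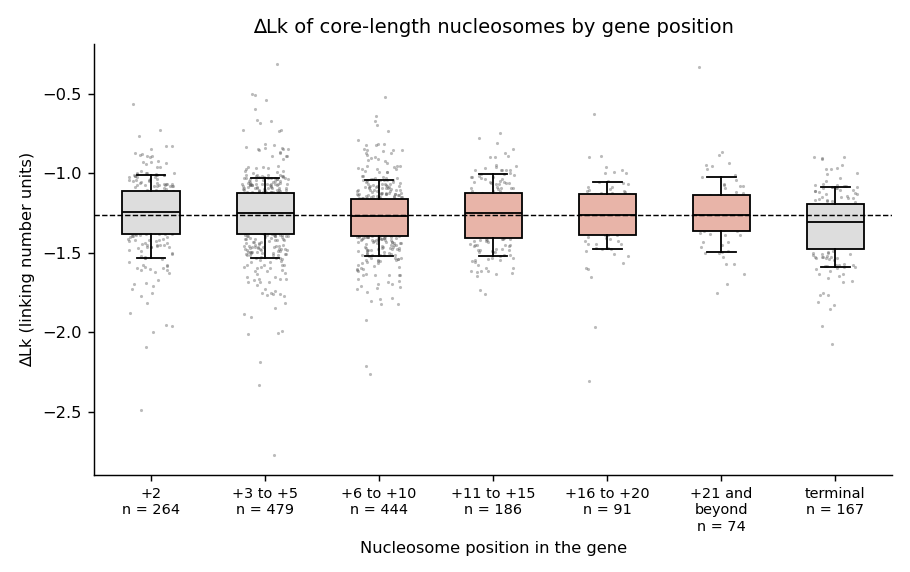
∆Lk (vertical, linking number units) of core-length nucleosomes by position in the gene. Boxes give the quartiles and the median, whiskers the 10th and 90th percentiles, points single nucleosomes, and the dashed line the library average of −1.26. The 4 boxes of +6 and beyond (pink) have medians between −1.27 and −1.25, and the terminal nucleosomes −1.31.

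Fragment length accounted for more of the order of members than gene position did. The median ∆Lk was −1.14 for the 119 members of 130 to 139 bp, −1.18 for 77 of 140 to 144 bp, −1.25 for 209 of 145 to 149 bp, −1.3 for 259 of 150 to 154 bp and −1.35 for 131 of 155 to 159 bp. Members above the library average made up 73.1% of the shortest group and 30.5% of the longest. Spearman's rho between length and ∆Lk was −0.33, and it was −0.11 when the term of 0.007 per bp was left out, so that most of the relation is the length term of the calculation. Without that term the medians of the 5 length groups were −1.2, −1.18, −1.24, −1.25 and −1.26. Before any length step, members of 140 to 144 bp and 145 to 149 bp had the largest excess in section A, with median log2(A/B) of 0.63 and 0.62, and those of 155 to 159 bp the smallest, 0.24.

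Members with more G+C and shorter A or T runs had less negative ∆Lk. As background, base composition changes the flexibility of DNA, and long runs of A are known to be stiff. The median was −1.39 in the 79 members with under 35% G+C, −1.29 in 282 with 35% to under 40%, −1.23 in 294 with 40% to under 45%, and −1.24 in 140 with 45% or more. Of the first group 25.3% lay above the library average, and of the third 57.5%. Above 45% the values were more scattered, with an SD of 0.278 beside 0.183 in the group just below. Over the 795 members, Spearman's rho with ∆Lk was 0.21 for G+C content, −0.22 for AA/TT, −0.21 for the longest run of A or T, 0.18 for AC/GT and 0.17 for CA/TG, and it lay between −0.09 and 0.15 for the other dinucleotides. Among the 468 members of 145 to 154 bp, where length varies little, rho with G+C was 0.29. The points share 1 set of libraries, and G+C content also rose with the reads in NucLib (rho 0.31), as did ∆Lk (rho 0.23 with log2 reads). The part of read depth in these relations was not tested.

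Split in 5 groups of 159 by ∆Lk, members with the most negative values (−2.31 to −1.43) had a median G+C content of 38.8% and a mean AA/TT frequency of 20.7%, while those with the least negative values (−1.12 to −0.33) had 42.0% and 18.1%. CG, the least frequent dinucleotide, had a median of 2.68% in the former and 3.36% in the latter. The longest run of A or T was 5 bp or shorter in 111 members, with a median ∆Lk of −1.19, and 12 bp or longer in 50, with a median of −1.33. Averaged over each of 3 zones up to 69 bp from the midpoint, A+T steps were more frequent in the lowest group, although not at every single position. AA, TT, AT and TA together made up 35.3% of steps within 20 bp of the midpoint in the lowest group and 32.5% in the highest, and 37.4% against 32.8% at 50 to 69 bp from it.

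**Figure D4:**
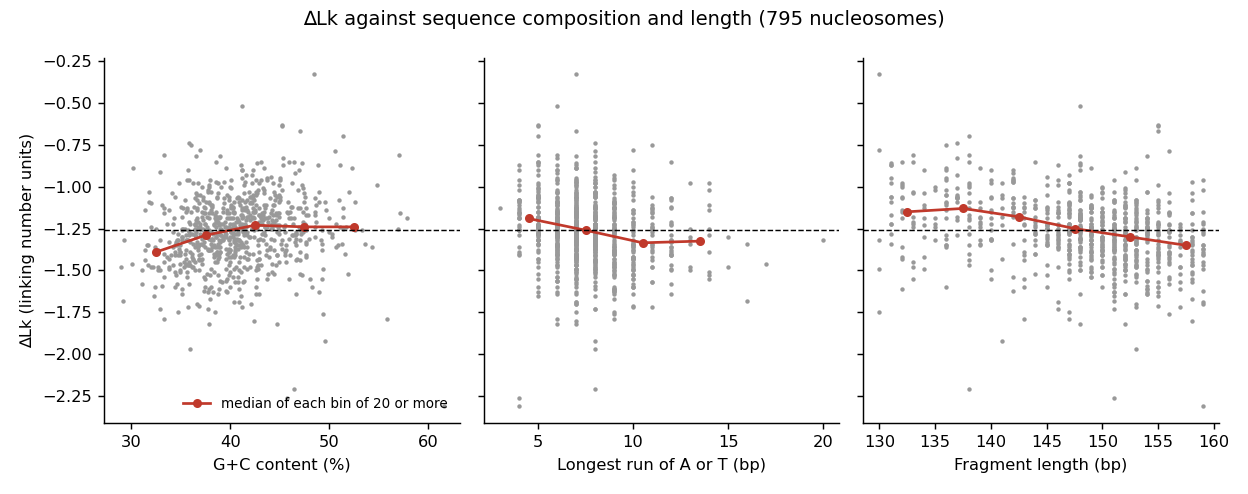
∆Lk (vertical, linking number units) of 795 nucleosomes against G+C content (left, %), the longest run of A or T (middle, bp) and fragment length (right, bp). Red points are medians of bins with 20 or more members and the dashed line is −1.26. The medians rise with G+C content up to about 40% to 45% and fall with A or T run and with length.

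The well-read member with the least negative ∆Lk was the +8 nucleosome of MGA1, which encodes a protein similar to heat shock factor. It had 199 and 159 reads in the 2 runs of section A and 46 and 57 in section B. Both runs of section A stood well above those of section B. Its ∆Lk was −0.7 (counting SD 0.06), with −0.68 and −0.76 from the single runs, and log2(A/B) was 1.62 with an adjusted p of 1.62e-11. Another core-length fragment of this nucleosome, 153 bp long with only 12 NucLib reads, lay at −1.22. It shares no end with the main fragment of 138 bp, which had 287 NucLib reads. LAG2 +8 followed with ∆Lk of −0.74 (counting SD 0.06), and its gene encodes an inhibitor of SCF ubiquitin ligases. It had 183 and 122 reads in section A, against 43 and 61 in section B, so that the ratio was higher in run 1 than in run 2, with log2(A/B) of 1.6 and 1.14. SSA1 +13, at the end of the coding sequence of an HSP70 chaperone, was read far more deeply, with 2686 and 2113 reads in section A, against 1035 and 1255 in section B. Its ∆Lk was −0.81 (counting SD 0.01) and −0.82 in each run alone. RSC6 +6 (−0.83), in a subunit of the RSC remodeller, MAM3 +9 (−0.85), in a gene of magnesium storage, and TOD6 +8 (−0.85), in a repressor of ribosome biogenesis genes, completed the 6 highest. All 6 were 133 to 138 bp long, with G+C contents from 35.8% to 57.1%.

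The most negative well-read member was NGG1 +8, in a subunit of the ADA and SAGA histone acetyltransferases. It had 58 and 42 reads in section A, against 69 and 69 in section B, and every run of section B exceeded those of section A. Its ∆Lk was −1.67 (counting SD 0.07), with −1.71 and −1.7 from the runs, and log2(A/B) was −0.64 (adjusted p = 0.00887 by edgeR). Log2(A/B) stayed between −0.84 and −0.48 in all alternatives tried, and the adjusted p was 0.000957 with TMM. The call was lost without run 2 of section A (0.0566), without run 1 of section B (0.122) and with DESeq2 (0.0615 and 0.14). UBP1 +7, in a ubiquitin-specific protease, had 60 and 55 reads in section A, against 55 and 75 in section B. Its ∆Lk was −1.64 (counting SD 0.07) in the pooled runs, although its log2(A/B) of −0.35 did not pass the test (adjusted p = 0.153). SCT1 +6, in an acyltransferase of glycerolipid synthesis, had 76 and 56 reads in section A, against 77 and 82 in section B, which gave ∆Lk of −1.6 in the pooled runs and in each run, and an adjusted p of 0.0438. Log2(A/B) was −0.45 by edgeR and stayed between −0.64 and −0.33 in the alternatives tried, with an adjusted p of 0.00458 with TMM. The call was lost without run 1 of section A (0.0673), without its run 2 (0.175), without run 1 of section B (0.257) and with DESeq2 (0.134 and 0.277). RRG8 +36 (−1.57), SIR2 +8 (−1.57), in the histone deacetylase of silent chromatin, and KNS1 +8 (−1.56), in a protein kinase, completed the 6 lowest, and none of these 3 passed the test between sections (adjusted p from 0.173 to 0.615). The 6 were 143 to 158 bp long, so that length differed between both ends of the order along with ∆Lk.

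DIN7 +7, in a mitochondrial nuclease gene, had 71 and 61 reads in section A, against 26 and 41 in section B. Section A was higher in both runs, with log2(A/B) of 0.96 and 0.71, and its adjusted p was 0.00313 by edgeR, against 0.221 and 0.0905 by DESeq2. Its ∆Lk was −1.2 (counting SD 0.08), −1.14 from run 1 and −1.24 from run 2. Both runs placed it above the library average, from which the pooled value differs by less than its counting SD.

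The most abundant member was the +41 nucleosome of IRA2, a negative regulator of Ras, with 63816 reads in NucLib. It had 48388 and 39013 reads in section A, against 12390 and 15546 in section B, an excess that was alike in both runs (log2(A/B) of 1.48 and 1.46). Its ∆Lk was −0.94, with −0.93 and −0.95 from the runs. SEC12 +9, in the exchange factor that starts COPII vesicle formation, had 9915 and 7937 reads in section A, against 6177 and 7787 in section B. The ratio was close to 1 in both runs, with log2(A/B) of 0.2 and 0.16, and the adjusted p of 2.78e-09 rests on this scaling, since TMM turned the value to −0.02 (adjusted p = 0.571). Its ∆Lk was −1.43 in the pooled runs, −1.42 and −1.45 from each. MDR1 +15, in a GTPase-activating protein for Rab GTPases, had 4905 and 4052 reads in section A, against 2715 and 3493 in section B. Its ∆Lk was −1 (−0.99 and −1.02 from the runs). Its other core-length fragments, with 58 NucLib reads in all against 8359 of the main one, had a median ∆Lk of −1.42. Although MDR1 +15 and SEC12 +9 both had log2(A/B) under 0.4, their ∆Lk lay on opposite sides of the average, because fragments of 132 bp and 151 bp have different length means and length terms.

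Nucleosomes with several core-length fragments allowed ∆Lk to be compared within a nucleosome. The median range over the 29 was 0.35, from 0.03 to 1.74. IRA2 +41 had 32 fragments, 31 of them sharing an end with the main fragment. Its other fragments held 2313 NucLib reads in all, against 63816 of the main one, and their ∆Lk had a median of −1.27 and reached from −2.43 to −0.69. SEC12 +9 had 18 fragments with a main value of −1.43 and a median of −1.71 in the rest. The antisense transcript anti172, at a nucleosome within YOR049C, and PMT4 +8, in a protein O-mannosyltransferase, had 5 fragments each, with main values of −1.09 and −1.13 and medians of −1.61 and −1.24 in the other fragments. In 16 of the 29 every other fragment had under 5% of the NucLib reads of the main one, and in 18 the median of the other fragments was lower than the main value. Whether these scarce fragments are separate clones was not tested. Examples with 2 well-read fragments were SGS1 +18, in the RecQ helicase, with fragments of 1270 and 786 NucLib reads and ∆Lk of −1.27 and −1.09, and CAF130 +20, in a subunit of the CCR4-NOT complex, with fragments of 727 and 123 reads at −1.2 and −1.25. Both were chosen after their values were seen.

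Nucleosomes of the same gene differed in ∆Lk by about as much as members at large, although this was not tested. The median absolute difference was 0.21 over 150 pairs within a gene, 0.26 over the 43 pairs that lay 1 or 2 positions apart, and 0.18 over all pairs of members. In the 15 genes with 3 or more members, the SD within the gene had a median of 0.18, from 0.02 to 0.5, beside 0.21 over all members. SLA1, which encodes an adaptor of the actin cytoskeleton, spanned −1.48 at +11 to −0.63 at +16. The former had 44 and 34 reads in section A, against 33 and 32 in section B, and the latter 52 and 40 against 7 and 9, with log2(A/B) of −0.07 and 0.22 against 2.41 and 2.29 in the runs. The reads of SLA1 +16 in section B were too few for a ∆Lk from each run. TOD6 had members at +6, +7, +8 and +9, whose ∆Lk was −1.33, −1.16, −0.85 and −1.43, with counting SDs of 0.09, 0.15, 0.01 and 0.04. The +8 and +9 fragments of TOD6 share 75 bp, and are 133 bp and 158 bp long. In FAS1, the beta subunit of fatty acid synthase, ∆Lk was −1.3 at +16, −1.24 at +17, −1.15 at +29 and −0.87 at +34. FHL1, a regulator of ribosomal protein genes, had −1.15, −1.48, −1.12 and −1.35 at +6, +7, +15 and +18, the last with only 20 and 15 reads in sections A and B. The 5 members counted from RRG8 ranged from −1.57 to −1.07. The widest range among genes with 3 members was that of ATG2, an autophagy gene, from −1.97 at +16 to −0.98 at +11. However, ATG2 +16 had only 17 and 39 reads in sections A and B, too few for a ∆Lk from either run. The narrowest range was that of TPS3, of trehalose synthesis, from −1.32 to −1.28.

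**Figure D5:**
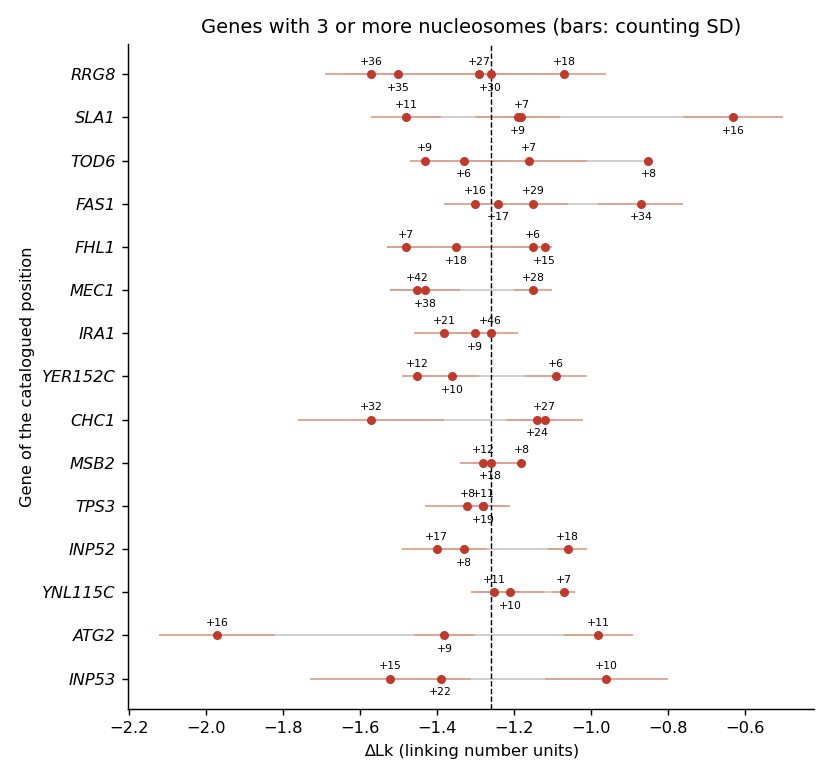
∆Lk (horizontal, linking number units) of the nucleosomes of the 15 genes with 3 or more members, labelled by position, with bars of ± 1 counting SD and the library average of −1.26 dashed. Ranges within a gene run from 0.04 (TPS3) to 0.99 (ATG2, where +16 had only 17 and 39 reads in sections A and B). Neighbours such as +8 and +9 of TOD6 lie far apart.

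By gene function, 280 members fell in at least 1 of 17 lists, and the medians of 11 lists lay between −1.27 and −1.21, close to the −1.26 of all members. The lists below or above that range are small, and no list was tested. The 8 nucleosomes of chaperone genes had a median of −1.11, and all 8 were enriched in section A, beside 47.5% of all members. They ran from CCT6 +8 (−1.26), in a subunit of the cytosolic chaperonin, through HSP82 +6 (−1.08) in the Hsp90 chaperone to SSA1 +13 (−0.81). SSZ1 +7, in an HSP70 of the ribosome-associated complex, was still higher at −0.52 but had only 8 and 4 reads in the runs of section B. The 6 nucleosomes of hexose transporter genes also had a median of −1.11, from HXT7 +7 (−1.23) to HXT6 +6 (−0.9). All 6 were enriched in section A, beside 47.5% of all members. However, 4 of these 6 come from HXT6 and HXT7, nearly identical genes whose fragments have 2 copies in the genome, so that they cannot be told apart. The 136-bp fragment was at −0.95 in HXT7 and −0.9 in HXT6.

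Lower medians were found in the lists of the nuclear pore (−1.38), O-mannosylation and glycosylation (−1.37), RNA polymerases with mediator and elongation factors (−1.36), and tRNA synthetases with translation factors (−1.36). Of 16 nuclear pore and transport members, 3 (18.8%) were enriched in section A, beside 47.5% of all members and 41.3% of core-length fragments. None was enriched in section B, beside 3.02% of all members, and 5 were above the library average. They ranged from NUP145 +24 (−1.5) to NUP192 +26 (−1.18) among those with 50 or more reads in each section, and only 8 of the 16 reached that depth. The median G+C content of this list was 36.1%, beside 40.4% over all members. Of 19 members in the transcription machinery, 7 (36.8%) were enriched in section A, near the 41.3% of core-length fragments, and 1 in section B, and 4 were above the library average. RPA190 +16, in the largest subunit of RNA polymerase I, had 32 and 29 reads in section A, against 33 and 30 in section B and a ∆Lk of −1.6, while SRB8 +25, in a mediator subunit, had 246 and 209 against 85 and 111 and a ∆Lk of −0.97. The member in section B was SPT5 +19, with 11 and 6 reads in section A, against 27 and 56 in section B, and a ∆Lk of −2.31. In the other lower lists, THS1 +9 (−1.6), in threonyl-tRNA synthetase, and KRS1 +12 (−1.03), in lysyl-tRNA synthetase, marked the ends among members with 50 or more reads in each section, as did MNN1 +10 (−1.53), in a Golgi mannosyltransferase, and PMT4 +8 (−1.13).

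Of 19 members in remodellers, histone modifiers and histone chaperones, 13 (68.4%) were enriched in section A, beside 47.5% of all members, and none in section B, beside 3.02%, with a median of −1.25. SIR2 +8 (−1.57) and RSC6 +6 (−0.83) were the lowest and the highest with 50 or more reads. Signalling genes of the Ras, cAMP and TOR pathways (15 members, 6 in section A, median −1.24) ran, with 50 or more reads in each section, from IML1 +18 (−1.52), in the complex that restrains TORC1, to IRA2 +41. Genes of vesicle traffic (35 members, 17 in section A and 1 in section B, median −1.25) ran, at the same depth, from SLA1 +11 (−1.48) to VPS8 +15 (−0.75), in an endosomal tethering complex. VPS8 +15 had 91 and 87 reads in section A, against 24 and 37 in section B, and −0.76 in both runs.

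Metabolic genes gave similar medians: −1.24 for amino acid synthesis (15 members, 10 in section A), −1.24 for glycolysis and storage carbohydrates (11, 7 in section A) and −1.22 for fatty acid and sterol synthesis (13, 10 in section A). These counts stand beside 47.5% of all members, and no member of the 3 lists was enriched in section B, where 3.02% of all members were. LYS21 +7 (−1.42), in homocitrate synthase, and SER3 +7 (−1.03), of serine synthesis, were the ends of the first among members with 50 or more reads in each section, a condition that also holds for the ends given next. GLG2 +7 (−1.52), in a glycogenin, and PYC1 +8 (−1.02), in pyruvate carboxylase, were those of the second, and HFA1 +36 (−1.36) and FAA2 +13 (−0.98) those of the third. The remaining lists held members from STE6 +14 (−1.54) to PDR5 +26 (−0.95) among transporters and pumps, from MEC1 +42 (−1.45) to YCS4 +19 (−1) in replication, repair and chromosome structure, from UBP1 +7 to UBP10 +12 (−0.98) in the ubiquitin system, from RIX7 +12 (−1.55) to UTP10 +30 (−1.07) in ribosome assembly, and from SCW10 +8 (−1.41) to SUN4 +7 (−0.96) in the cell wall.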

How the data were processed

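The deposited values are read counts per distinct fragment, chromosome, start and end, in 1 list for each of 6 libraries (NucLib, section A and section B, 2 runs each). The authors trimmed adaptors, mapped the read pairs to R64 with Bowtie 1.1.2 and counted fragments without normalization, and BWA, SAMtools and Picard stand in their notes too. Each list ends at 65536 fragments, so that its total is a lower bound. A library fragment absent from a list was counted as 0 reads there. The totals were 851697 and 1748161 reads for NucLib, 2073823 and 1698433 for section A and 1480629 and 1865197 for section B. Member fragments held 12.8%, 10.1% and 6.11% of the reads of these samples. Reads amplified by PCR and lacking molecular identifiers are no independent molecules, and the errors given here cover counting only.

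Fragments, nucleosomes and classes came from the study's supplementary lists, of which the copy of the class list held 8169 rows, and 194 distinct fragments had no class. A fragment listed under several nucleosomes took the position of the nearest. The reference has the R64 chromosomes, and every fragment ended within them. Sequences, copies and gene models were read from it.

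∆Lk was calculated as described in the report, from reads summed over runs, and for each run with its own length means over fragments with 10 or more reads in each section of that run. Its counting SD is the analytical error of the 2 sums. Section A was tested against section B with edgeR 4.0.16 (quasi-likelihood, library sizes from the list totals, Benjamini-Hochberg over 8018 fragments) in R 4.3.3. DESeq2 1.42.0, TMM, read minimums and single libraries were alternatives. Other steps used Python 3.11.15 with pandas 2.3.3 and scipy 1.17.1. The study describes replicates 1 and 2 as reads from 2 flow-cell lanes, but whether both sections shared a lane is not stated. The deviations of run 1 correlated little between sections (r = 0.0648 across fragments), and the fit has no block. The p-values measure only the spread between sequencing runs.

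Named members are the 6 highest and the 6 lowest with at least 100 reads in each section, 1 genome copy and the same side of −1.26 in both runs, the 3 with most NucLib reads, DIN7 +7, genes with 4 or more members, the ends of each gene list with 50 or more reads in each section, and nucleosomes with 5 or more core-length fragments. Other members named in the text were chosen after their values were seen. The members, lists and rules were chosen with earlier results of these data known. Of 1020 list entries, 1019 matched a gene.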

Additional observations from a re-analysis of the deposited data

How the results depend on the processing

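No call changed from one section to the other in any alternative. With the sequencing run as a replicate block, 397 members were enriched in section A and 28 in section B, which included all 378 and 24 of the fit without it. Leaving out each library in turn gave 321 to 333 and 16 to 22. DESeq2 gave 133 and 12 with its own size factors and 218 and 11 with those of the list totals, over the 712 members to which it gave an adjusted p, and all of these were also called by edgeR. TMM gave 277 in section A and 41 in section B, and under it SEC12 +9 changed sign to −0.02. Counting every member fragment gave 49 in section B. The median ∆Lk was −1.277 without run 1 and −1.266 without run 2, −1.28 with 50 reads, −1.237 with no length term and −1.099 with no subtraction of the length mean. In the same order the share above the library average was 47.0%, 48.4%, 43.1%, 56.9% and 76.6%, and it was 47.3% over every member fragment and 50.3% with length means from outside rDNA and telomeric regions. The difference from +3 to +5 was −0.02 and −0.012 in the runs, −0.021 with those outside means, −0.026 with no length term and −0.002 with no subtraction. The difference between +16 and beyond and +6 to +10 was 0.024 and 0.022 without run 1 and run 2, 0.019 over every fragment, 0.011 with means per nucleosome, 0.009 with outside means, 0.003 with no subtraction and 0.01 with positions from any listed nucleosome. Spearman's rho in the runs was −0.2 and −0.21 for AA/TT, 0.17 and 0.16 for AC/GT, and −0.19 and −0.22 for the longest A or T run. With 50 reads these were −0.23, 0.21 and −0.26, and with no subtraction AC/GT was 0.17. The cause of these shifts was not tested, except that the length steps set the level by construction. The median SD within a gene was 0.14 and 0.2 in the runs, an alternative added after the data were seen. Of 64 named nucleosomes, 18 moved by more than their spread between runs or counting SD with no length term. Depth limits the 285 members with under 50 reads in a section, whose side of the average is often within counting error.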

Other observations

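The most extreme members were scarce in a section. SPT5 +19 (chrXIII:250508-250666), in an elongation factor, had 11 and 6 reads in section A against 27 and 56 in section B and a ∆Lk of −2.31 (counting SD 0.12). The 3 further fragments of this nucleosome lay between −2.46 and −1.94. All 3 share an end with the main fragment, and they held only 38 NucLib reads in all, against its 23. PCS60 +7 (−2.26) and PUT4 +6 (−2.21), in a peroxisomal enzyme and in a proline permease, were also enriched in section B. At the other end were SGS1 +24 (−0.33), SSZ1 +7 (−0.52) and SLA1 +16 (−0.63), with 16, 12 and 16 reads in section B. SPT5 +21, whose fragment shares 100 bp with that of SPT5 +19, had 2144 and 990 reads in sections A and B and a ∆Lk of −1.16. These nucleosomes were chosen after their values were seen, except SLA1 +16.

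Medians were also compared by the place in the reading frame and the kind of transcript. The 203 nucleosomes nearer to the start codon than to the stop codon had a median of −1.29 and 41.9% above the library average, and the 537 nearer to the stop codon −1.25 and 51.0%. The 20 nucleosomes counted in non-coding transcripts had a median of −1.18, with 13 of them (65.0%) enriched in section A, beside 47.5% of all members and 41.3% of core-length fragments. Chromosome medians ran from −1.32 (II and XV) to −1.23 (V and IX). The distance of a fragment from the midpoint of the catalogued nucleosome made little difference, with medians of −1.27 under 20 bp (n = 318), −1.25 at 20 to under 50 bp (n = 265) and −1.27 at 50 bp and over (n = 212). These splits were made with the values in view and were not tested.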
